A study of Arabidopsis thaliana with 8 samples.

Results

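WRKY proteins are a plant family of transcription factors that bind the W box, a short DNA motif, through a conserved WRKY domain. Many WRKY genes are switched on within minutes of wounding, pathogen contact or other stress, downstream of MAP kinase cascades, and their products in turn control salicylic acid signalling, camalexin synthesis, senescence and each other's promoters. A few act in development instead, in the zygote, the endosperm, the stem pith or the root. The 36 genes described here were taken from a list of named loci. The rule itself uses no measured value, although the list was drawn up with earlier results of these data known. All 36 matched by name in the RefSeq gene table used for positions, which holds 72 WRKY genes among 27444 nuclear protein-coding genes of Arabidopsis thaliana.

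The assay was ATAC-seq, which marks accessible DNA by transposase insertion, done on protoplasts sorted from inflorescence apices. All plants carried the DRNL::erGFP reporter in the ap1 cal background, whose apices proliferate as inflorescence meristems in place of flowers. The GFP-positive group (3 libraries) held lateral organ founder cells, marked by the promoter of DRNL, an AP2-type transcription factor gene, and the GFP-negative group (3 libraries) held the non-founder cells of the same apices. Apices of many plants were pooled for a sort, and the series calls the 3 libraries of each population biological replicates, so p-values measure the spread between such sorts. All 6 libraries came from protoplasts and no unsorted tissue was analysed here, so chromatin opened by cell wall digestion and chromatin open in the intact apex cannot be told apart, and a mixture of cells cannot be told apart from a partly open state in each cell.

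The deposited lists give transposase hypersensitive sites (THSs) as stretches of whole 100 bp windows, with no read counts, so the depth is unknown. They held 24156 to 26216 sites in the GFP-positive libraries and 26001 to 28757 in the GFP-negative libraries, covering 17.3 to 19.6 Mb and 17.8 to 19.4 Mb. For each gene, coverage is the percent of bases under a THS in a window made of the gene and 1000 bp on each side. The table gives no strand, so the sides are called the lower and the higher flank by chromosome position. Mean coverage of 6 founder cell marker genes was 54.7 to 60.6% in GFP-positive libraries, against 31.9 to 34.3% in GFP-negative libraries. All GFP-positive values lay above all GFP-negative values for each of the 6, against 3.61% of all genes tested. Of the 6, 1, AS2, was past the limma threshold (adjusted p = 0.0164). The markers were chosen with earlier results of these data known. DRNL, PUCHI, FIL, AS2 and AHP6 are in the authors' own list of genes with increased sites in GFP-positive cells. Their separation is therefore no independent check of the sort. Mean coverage of 4 leaf mesophyll markers, by contrast, was 31.0 to 34.7% in GFP-positive and 38.8 to 39.3% in GFP-negative libraries. For RBCS3B and CA1 all GFP-positive values lay below all GFP-negative values, which held for 6.63% of all genes tested. Of the 4, 0 passed limma, and 2 were lower at an unadjusted limma p under 0.05, against 6.95% of all genes tested. RBCS3B is in the authors' own list of genes with reduced sites in GFP-positive cells, so its separation is no independent check either. The other 2 markers, RBCS1A and LHCB1.1, were close to equal. RBCS1A had 71.2 ± 4.93% in GFP-positive libraries and 70.6 ± 1.64% in GFP-negative ones. LHCB1.1 had 30.2 ± 3.02% in GFP-positive libraries and 29.6 ± 0.540% in GFP-negative ones. Mean coverage of 3 meristem centre markers was 14.4 to 26.2% in GFP-positive and 20.4 to 20.8% in GFP-negative libraries. The groups overlapped at WUS and CLV3, whereas STM was higher in every GFP-positive library, as were 3.61% of all genes tested. Of the 3, 0 passed limma.

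As a group, the WRKY genes were about as open in founder cells as in their neighbours, and in both populations many of the genes were widely open. Mean coverage over the 36 genes was 32.9, 35.2 and 33.8% in the GFP-positive libraries, against 33.1, 33.3 and 36.7% in the GFP-negative libraries. The group values were 34.0 ± 1.15% and 34.4 ± 2.00% (SD, n = 3 each), a difference of -0.41 percentage points that is smaller than either SD. Coverage was higher in GFP-positive cells for 18 genes, lower for 13 and equal for 5, with a median difference of 0.316 percentage points. For 25 of the 36, the difference was no larger than the larger of the 2 group SDs. Over all protein-coding genes the means were 18.3 ± 1.32% in GFP-positive libraries, against 18.8 ± 0.886% in GFP-negative libraries, and the median difference was 0.

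The range within the family was wide. Mean coverage over the 6 libraries was over 75% for 4 genes, over 50% for 10 (27.8% of the list, against 7.18% of all protein-coding genes) and under 10% for 9. A THS lay in the window in at least 1 library for 34 genes (94.4%, against 82.0% of all genes) and in all 6 libraries for 31 (86.1%, against 71.5%). The top 25.0% of all genes began at 26.8% coverage, and 20 of the 36 genes (55.6%) lay above that level. The other 36 WRKY genes of the table averaged 14.9 ± 1.68% in GFP-positive libraries, against 15.5 ± 0.944% in GFP-negative libraries, with 9 genes above that level and 1, WRKY51, over 50%. Their medians were 13.0% in GFP-positive libraries and 13.1% in GFP-negative libraries, against 13.3% and 13.9% for all genes in the same populations. By known role, 25 listed genes act in defence or stress responses and averaged 42.7 ± 1.39% in GFP-positive libraries, against 43.1 ± 2.01% in GFP-negative libraries. The 5 with roles in development averaged 17.2 ± 1.35% in GFP-positive libraries and 18.6 ± 3.30% in GFP-negative libraries. The remaining 6 averaged 11.8 ± 2.16% in GFP-positive libraries and 11.3 ± 0.913% in GFP-negative libraries. All 10 genes over 50% were among the 25.

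**Figure D1:**
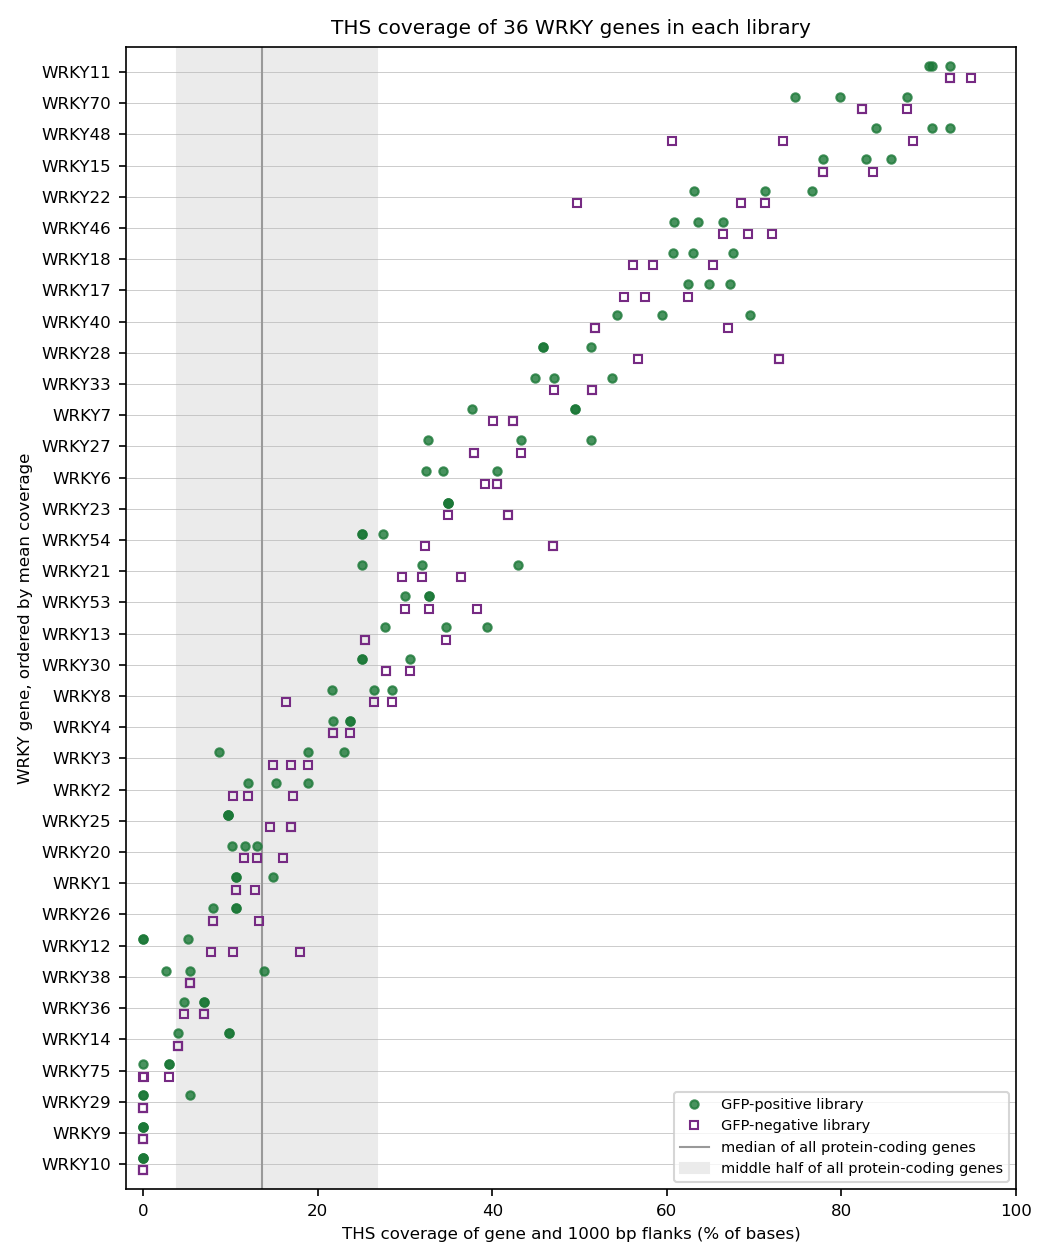
THS coverage of each of the 36 WRKY genes (x axis, percent of bases in the gene and its 1000 bp flanks) in each library, with genes ordered from the highest mean at the top; filled circles are GFP-positive and open squares GFP-negative libraries, the line is the median of all protein-coding genes and the band the range from their 25th to their 75th percentile. Coverage runs from over 90% at WRKY11 to 0 at WRKY9 and WRKY10, and the populations overlap for most genes.

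Few WRKY genes passed the test between the populations. Of 33 WRKY genes that could be tested, with coverage in at least 2 libraries, 0 passed limma with higher coverage in GFP-positive cells and 1 with lower coverage, where 0.347% and 1.14% of 21886 genes tested were called. At an unadjusted p under 0.05 the counts were 1 higher (WRKY17) and 4 lower, where 3.84% of all genes tested were higher and 6.95% lower. The 3 GFP-positive values lay above all GFP-negative values for 0 of the 33 and below them for 4 (WRKY12, WRKY25, WRKY28 and WRKY54), and over all genes tested this held for 3.61% and 6.63%. With a single call, the list is not set apart from that background. Of the 4 mesophyll markers, RBCS3B and CA1 were, like these 4 genes, lower in every GFP-positive library and RBCS1A and LHCB1.1 were not. RBCS3B and CA1 had coverage of 8.21% and 20.4% in GFP-positive libraries, against 24.6% and 31.7% in GFP-negative libraries, and the part of such cells in these results was not tested.

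**Figure D2:**
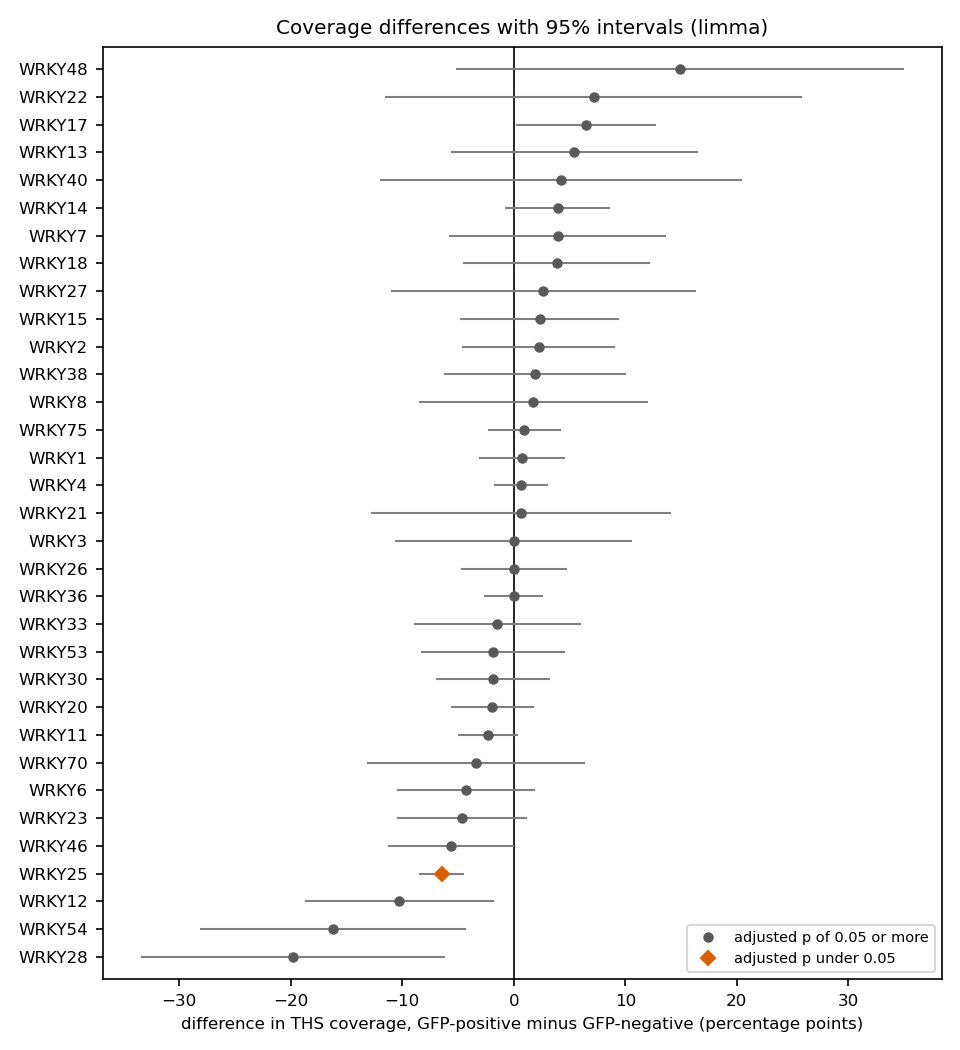
Difference in THS coverage (GFP-positive minus GFP-negative, percentage points) for the 33 tested WRKY genes, with 95% intervals from limma that are not adjusted for the number of genes. The interval of WRKY25 is narrow and below 0 and carries the only adjusted p under 0.05. Those of WRKY12, WRKY28 and WRKY54 also lie below 0 unadjusted, and that of WRKY17 lies above 0 unadjusted.

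The genes known as repressors of basal defence ran from the most open gene of the list, WRKY11, to WRKY38, with a mean of 6.32% over the 6 libraries. WRKY11 (AT4G31550), a negative regulator of resistance to bacteria, was covered by 90.4, 92.5 and 90.0% in GFP-positive libraries, against 92.5, 94.9 and 92.5% in GFP-negative libraries. It had the highest mean of the 36, and the populations met at 92.5%. Its widest THS spanned 4200 to 4400 bp, where the median THS of every library is 500 bp, and its score, the authors' own value for a site, stood at the 99.7th to 99.9th percentile of its list. WRKY17 (AT2G24570), its close relative, had 62.4, 64.8 and 67.3% in GFP-positive libraries, against 57.5, 62.4 and 55.1% in GFP-negative libraries (limma adjusted p = 0.449). The populations shared only the value 62.4%.

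WRKY48 (AT5G49520), a stress-induced repressor of basal defence, had 90.4, 92.5 and 84.0% in GFP-positive libraries, against 73.3, 60.6 and 88.2% in GFP-negative libraries. The difference of 14.9 ± 7.69 percentage points (SE; limma adjusted p = 0.537) was the most positive of the list, and GFP-negative replicate 3 lay inside the GFP-positive range. WRKY40 (AT1G80840), which represses defence together with WRKY18, had 69.5, 54.3 and 59.4% in GFP-positive libraries, against 51.8, 51.8 and 67.0% in GFP-negative libraries (limma adjusted p = 0.839). Both populations spread over about the same range at WRKY40. WRKY18 (AT4G31800) averaged 63.8 ± 3.53% in GFP-positive libraries and 59.9 ± 4.81% in GFP-negative libraries. WRKY7 (AT4G24240), a calmodulin-binding member, averaged 45.5 ± 6.80% in GFP-positive libraries and 41.6 ± 1.36% in GFP-negative libraries, and at both genes the populations overlapped. WRKY38 (AT5G22570), also a repressor of basal defence, was much less open, with 2.55 to 13.9% in GFP-positive libraries and 5.37% in each GFP-negative library.

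Genes of salicylic acid signalling and senescence, mostly of family group III, were open to very different extents. WRKY70 (AT3G56400), which acts downstream of salicylic acid and restrains senescence, had 79.8, 87.5 and 74.7% in GFP-positive libraries, against 87.5, 82.4 and 82.4% in GFP-negative libraries (limma adjusted p = 0.765). The ranges overlapped. WRKY54 (AT2G40750), its closest partner, had 25.0, 27.4 and 25.0% in GFP-positive libraries, against 32.3, 46.9 and 46.9% in GFP-negative libraries. All 3 GFP-positive values lay below all 3 GFP-negative values, but the difference of -16.2 ± 4.56 percentage points (SE) did not pass limma (adjusted p = 0.281). Without GFP-negative replicate 1, its lowest value in that group, the difference was -21.1 points and passed (limma adjusted p = 0.00890, with 0.00890 to 0.650 over all alternatives). The GFP-negative values left were then identical, so this p-value measures no spread between GFP-negative libraries at WRKY54.

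WRKY53 (AT4G23810), which promotes leaf senescence, had 29.9, 32.7 and 32.7% in GFP-positive libraries, against 29.9, 32.7 and 38.3% in GFP-negative libraries (limma adjusted p = 0.817). The populations shared all values but the highest GFP-negative one. WRKY46 (AT2G46400), induced by salicylic acid, had 60.8, 66.4 and 63.6% in GFP-positive libraries, against 66.4, 69.3 and 72.1% in GFP-negative libraries (limma adjusted p = 0.464), and the groups touched at 66.4%. WRKY30 (AT5G24110), induced by oxidative stress, averaged 26.9 ± 3.21% in GFP-positive libraries and 28.7 ± 1.61% in GFP-negative libraries. Over the 6 group III genes, which include WRKY38, coverage averaged 39.3 ± 1.32% in GFP-positive libraries, against 43.9 ± 1.73% in GFP-negative libraries, with a lower mean in GFP-positive cells for 5 of 6. None of the 6 passed limma, and 1, WRKY54, had an unadjusted p under 0.05. WRKY54 also had the largest difference of the 6, at -16.2 percentage points. Of the other family groups, I, IIb and IIc had lower means in GFP-positive libraries, and IIa, IId and IIe had higher ones. Group IIe averaged 30.6 ± 2.02% in GFP-positive libraries, against 26.7 ± 3.31% in GFP-negative libraries.

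WRKY28 (AT4G18170), an activator of salicylic acid synthesis, showed the most negative difference of the list. It had 45.8, 51.3 and 45.8% in GFP-positive libraries, against 72.8, 56.7 and 72.8% in GFP-negative libraries. No GFP-positive value reached the lowest GFP-negative one, and the difference was -19.8 ± 5.23 percentage points (SE; limma adjusted p = 0.252). Without GFP-negative replicate 2, the lowest of its group, the difference was -25.2 points (limma adjusted p = 0.0376, with 0.0376 to 0.650 over all alternatives). The GFP-negative values left were then identical, so this p-value measures no spread between GFP-negative libraries at WRKY28.

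Targets of the MAP kinase cascades were also unequally open. WRKY33 (AT2G38470), a MAP kinase substrate that drives camalexin synthesis, had 47.0, 53.7 and 44.8% in GFP-positive libraries, against 51.5, 47.0 and 51.5% in GFP-negative libraries (limma adjusted p = 0.901). WRKY22 (AT4G01250), placed downstream of flagellin perception, had 71.2, 76.6 and 63.1% in GFP-positive libraries, against 49.7, 68.5 and 71.2% in GFP-negative libraries. WRKY29 (AT4G23550), named with WRKY22 in the flagellin pathway, was listed at 0 in 5 libraries and had 5.35% in GFP-positive replicate 3, from a single THS of 200 bp inside the gene. Thus WRKY22 was wide open in both populations, while its pathway partner had almost no THS. In the other libraries the nearest THS to WRKY29 lay 4831 bp away.

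WRKY25 (AT2G30250), a gene of heat and salt tolerance, was the only listed gene past the limma threshold, and its coverage fell in GFP-positive cells. It had 9.68% in each of the 3 GFP-positive libraries, against 16.9, 14.5 and 16.9% in the GFP-negative libraries. The difference was -6.46 ± 0.780 percentage points (SE, limma adjusted p = 0.0406). All of it lay in one THS at one end of the gene, with a width of 400 bp in all 3 GFP-positive libraries, and of 700, 600 and 700 bp in the GFP-negative libraries. The call rests on widths that move in steps of 100 bp and on identical GFP-positive values, and it was lost without any one of GFP-positive replicates 1, 2 or 3 (limma adjusted p = 0.135, 0.103 and 0.128), GFP-negative replicate 1 (0.0812) or GFP-negative replicate 3 (0.0902). Over all alternatives its limma adjusted p was 0.00215 to 1.0. The lowest came without GFP-negative replicate 2, where the values left were identical within each group.

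Its functional partner in heat responses, WRKY26 (AT5G07100), had 7.98 to 10.6% in GFP-positive libraries and 7.98 to 13.3% in GFP-negative libraries, with equal means of 9.75%. Of the other stress genes, WRKY15 (AT2G23320), an osmotic stress regulator, had 77.9, 85.7 and 82.8% in GFP-positive libraries, against 77.9, 83.6 and 77.9% in GFP-negative libraries. WRKY75 (AT5G13080), a regulator of phosphate starvation responses, had 2.92, 0 and 2.92% in GFP-positive libraries, against 0.029, 0 and 2.92% in GFP-negative libraries. WRKY15 was thus among the 5 most open genes and WRKY75 among the 5 least open, each with overlapping groups. The WRKY75 coverage is the edge of a site that starts 899 bp or more from the gene.

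The remaining stress genes lay between. WRKY6 (AT1G62300), a phosphate and senescence regulator, averaged 35.7 ± 4.23% in GFP-positive libraries, against 40.0 ± 0.797% in GFP-negative libraries. WRKY27 (AT5G52830), which affects bacterial wilt symptoms, averaged 42.4 ± 9.35% in GFP-positive libraries and 39.7 ± 3.07% in GFP-negative libraries. WRKY8 (AT5G46350), a salt and virus response gene, averaged 25.5 ± 3.54% in GFP-positive libraries and 23.7 ± 6.49% in GFP-negative libraries. WRKY3 (AT2G03340) and WRKY4 (AT1G13960), which act against necrotrophic fungi, averaged 16.9 ± 7.40% and 23.1 ± 1.12% in GFP-positive libraries, against 16.9 ± 2.05% and 22.4 ± 1.12% in GFP-negative libraries. The populations overlapped for WRKY6, WRKY27, WRKY8, WRKY3 and WRKY4.

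Among the developmental genes, none was over 50% covered. WRKY12 (AT2G44745), which restrains secondary wall formation in the pith, had 5.14, 0 and 0% in GFP-positive libraries, against 7.71, 10.2 and 17.9% in GFP-negative libraries. The groups did not overlap, with a difference of -10.2 ± 3.23 percentage points (SE; limma adjusted p = 0.349), and all of its THSs lay in the flanks. Their scores were low, at the 3.42nd to 33.4th percentile of their lists. WRKY13 (AT4G39410), which acts on lignin formation and flowering time, had 27.7, 34.7 and 39.4% in GFP-positive libraries, against 25.4, 25.4 and 34.7% in GFP-negative libraries (limma adjusted p = 0.727).

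WRKY23 (AT2G47260), an auxin-responsive gene of embryo and root, had 34.9% in each GFP-positive library, against 34.9, 41.8 and 41.8% in GFP-negative libraries (limma adjusted p = 0.517). It passed limma without GFP-negative replicate 1 (difference -6.96 points, adjusted p = 0.0336, with 0.0336 to 1 over all alternatives). The values left were then identical within each group, so this p-value measures no spread between libraries at WRKY23. WRKY2 (AT5G56270), a regulator of zygote polarity, had 12.0, 15.3 and 18.9% in GFP-positive libraries, against 12.0, 10.3 and 17.2% in GFP-negative libraries. WRKY10 (AT1G55600), known as MINI3 and active in the endosperm, was listed at 0 in all 6 libraries, with the nearest THS 1745 bp away in each. The developmental genes thus ran from no THS at WRKY10 to a mean of 37.2% over the 6 libraries at WRKY23.

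Of the genes given no role here, WRKY9 (AT1G68150) was also listed at 0 in all 6 libraries, with the nearest THS at 1648 to 1848 bp. WRKY14 (AT1G30650) had 9.84, 9.84 and 3.94% in GFP-positive libraries, with 3.94% in every library of GFP-negative cells (limma adjusted p = 0.517). Without GFP-positive replicate 3, which had the GFP-negative value, WRKY14 was higher by 5.91 points (limma adjusted p = 0.00293, with 0.00293 to 0.711 over all alternatives). The values left were then identical within each group, so this p-value measures no spread between libraries at WRKY14. WRKY21 (AT2G30590) averaged 33.3 ± 9.02% in GFP-positive libraries, against 32.7 ± 3.49% in GFP-negative libraries. WRKY1 (AT2G04880), WRKY20 (AT4G26640) and WRKY36 (AT1G69810) averaged 12.1, 11.6 and 6.19% in GFP-positive libraries, against 11.4, 13.5 and 6.19% in GFP-negative libraries.

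**Figure D3:**
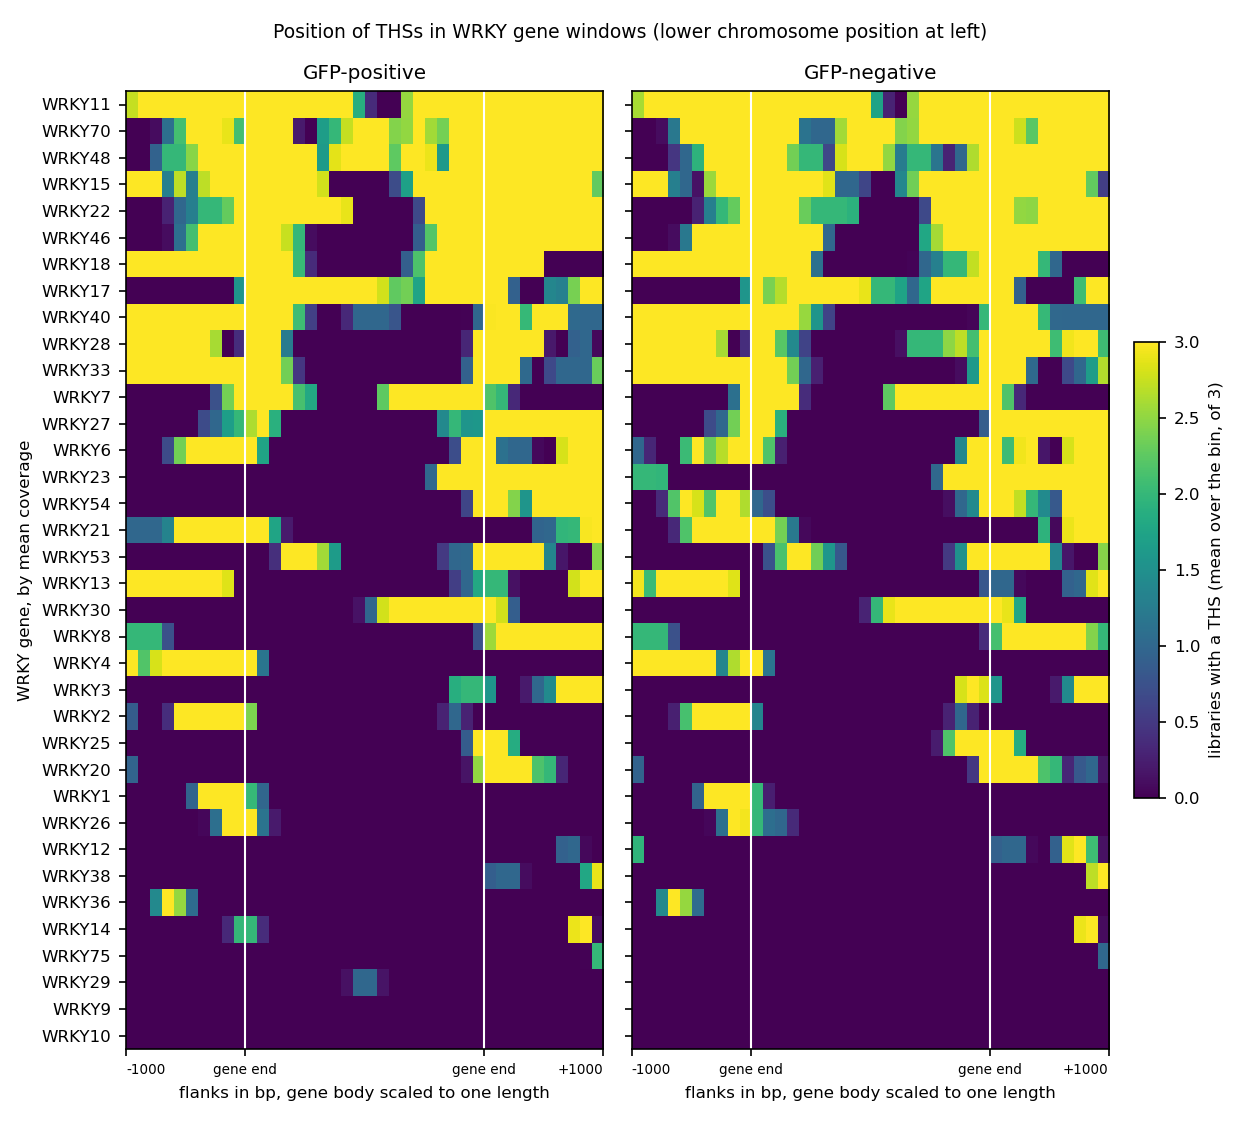
Number of libraries (of 3) with a THS along each WRKY gene window, GFP-positive left and GFP-negative right, with flanks in bp, the gene body scaled to one length and the lower chromosome position at the left; genes are in order of mean coverage. The most open genes are covered in both flanks and most of the body, whereas most genes with less coverage have THSs at or near a gene end, and WRKY9 and WRKY10 have none.

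The windows of WRKY25, WRKY28, WRKY46 and WRKY54 held stretches of at least 100 bp under a THS in every GFP-negative library and in no GFP-positive library. Such stretches occurred at 4 of the 36 genes, against 6.38% of all protein-coding genes. At WRKY25 the stretch was 200 bp inside the gene (chr2:12905001-12905200, TAIR10). At WRKY28 there were 100 bp inside the gene (chr4:10062601-10062700) and 100 bp in the higher flank (chr4:10063501-10063600), and at WRKY46 100 bp inside the gene (chr2:19043801-19043900). WRKY54 had 200 bp and 300 bp in its lower flank (chr2:16999801-17000000 and chr2:17000101-17000400). At WRKY25 and WRKY46 these are the inner edges of THSs present in both populations.

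The reverse, a stretch open in every GFP-positive and no GFP-negative library, occurred at 1 of the 36 genes, against 3.88% of all genes. It was 100 bp in the higher flank of WRKY54 (chr2:17003001-17003100), 472 bp outside the gene. Summed over the list, such GFP-positive stretches came to 100 bp and GFP-negative ones to 1000 bp, against 40417 bp open in all 6 libraries.

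When all THSs were merged into regions, WRKY54 was the only listed gene near a region with a THS in all 3 libraries of one population and in none of the other. The region (chr2:16999701-17000600, 900 bp) held a THS in all 3 GFP-negative libraries and in no GFP-positive library. Such regions lay within 1000 bp of 2.13% of protein-coding genes, and the GFP-positive kind, found at 0 of the 36, within 1000 bp of 0.383%. The space beside WRKY54 is shared with WRKY55, another group III gene, whose own coverage was 18.8 ± 5.22% in GFP-positive libraries, against 37.7 ± 9.13% in GFP-negative libraries (limma adjusted p = 0.308), so the region cannot be assigned to one of the pair.

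**Figure D4:**
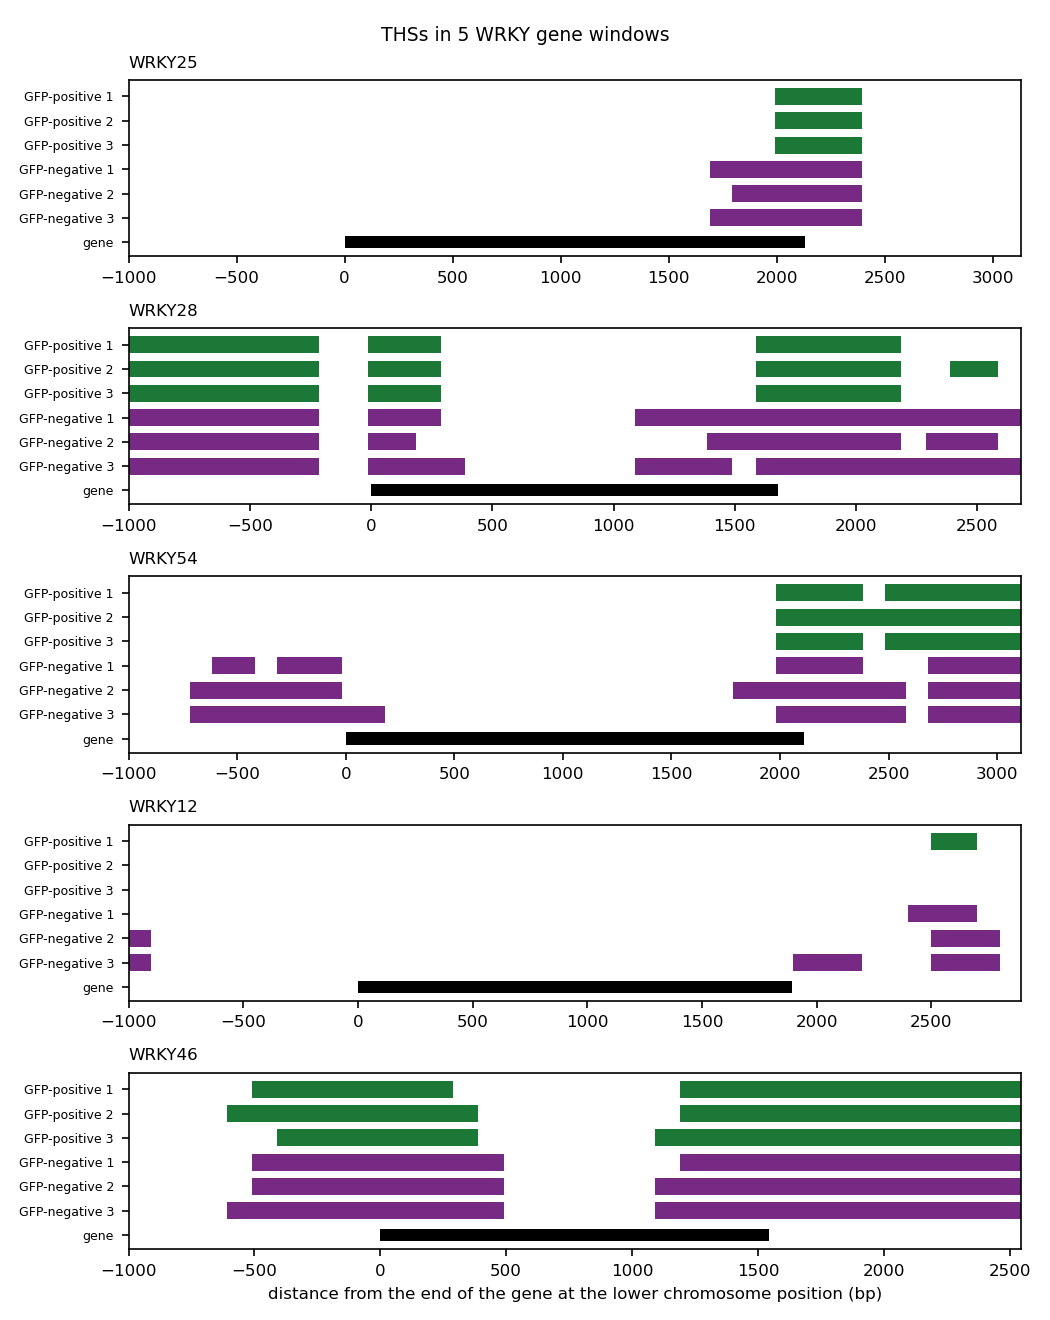
THSs of each library in the windows of WRKY25, WRKY28, WRKY54, WRKY12 and WRKY46 (x axis, bp from the gene end at the lower chromosome position; black bar, the gene), GFP-positive libraries above GFP-negative ones. At WRKY54 the lower flank has THSs in the 3 GFP-negative libraries alone, whereas at WRKY25 and WRKY46 a shared THS reaches farther into the gene in GFP-negative libraries.

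In the authors' deposited table of gene lists, which holds identifiers and no values, WRKY54 is the single listed gene among those with reduced sites in GFP-positive cells (dTHS-down), a list that takes in 1.37% of protein-coding genes. Of the other 36 WRKY genes, 2 are also dTHS-down: WRKY63, and WRKY55, the neighbour that shares the region beside WRKY54. WRKY46 is the single listed gene among those with increased sites (dTHS-up, 0.412% of protein-coding genes in the authors' deposited table). Its coverage ran the other way, with means of 63.6% in GFP-positive libraries, against 69.3% in GFP-negative libraries. The top-scoring THS of WRKY46 stood between the 98.3rd and the 99.7th percentile of the GFP-positive lists, against the 98.1st to the 99.6th of the GFP-negative lists, so the ranges overlap. Coverage was higher in GFP-positive cells for 107 of 113 genes that the authors' deposited table lists as dTHS-up, so WRKY46 belongs to the 6 for which it was not.

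The authors' deposited table names 35 of the 36 genes as having THSs in GFP-positive cells (97.2%, against 89.1% of protein-coding genes) and 31 in GFP-negative cells (86.1%, against 72.3%). WRKY29 is missing from both. WRKY9 and WRKY10 are in the GFP-positive list of the authors' deposited table although no THS lay within 1000 bp of either, and WRKY38 and WRKY75 are absent from its GFP-negative list although GFP-negative THSs lay in their windows. How sites were tied to genes in that table is not known from the sources used.

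The listed WRKY genes were open mainly beside the gene, with medians above those of all genes. Over the 6 libraries together, flanks were more covered than the gene body in 26 genes and less covered in 8. The median of both flanks was 39.6% in GFP-positive libraries and 39.5% in GFP-negative libraries, where all genes had 20.1% and 21.1% in the same populations. The body median was 11.5% in GFP-positive libraries and 15.4% in GFP-negative libraries, where all genes had 4.72% and 5.14%. The other 36 WRKY genes had lower medians than all genes in the same populations. Their flank medians were 15.8% (GFP-positive) and 20.4% (GFP-negative), and their body medians 0.496% and 2.90%. Of the listed genes, WRKY17 was an exception, with a more covered body than flanks. Its body was covered by 95.3% and its flanks by 32.6% in GFP-positive libraries, against 87.4% and 27.6% in GFP-negative libraries. WRKY7, WRKY22, WRKY30, WRKY53 and WRKY70 also had a more covered body than flanks in both populations. WRKY48 had a body coverage of 93.8% and a flank coverage of 82.4% in GFP-positive libraries, against 72.8% and 75.7% in GFP-negative libraries. The body held no THS in any library for 6 of the 36 genes, against 30.2% of all genes.

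Coverage stayed high away from the genes. In the first 100 bp outside both gene ends, 55.2% of bases were covered in GFP-positive libraries, against 56.1% in GFP-negative libraries, and at 900 to 1000 bp the values were 38.7% in GFP-positive libraries and 39.6% in GFP-negative libraries. Over all genes, 38.4% (GFP-positive) and 39.4% (GFP-negative) of bases were covered beside the ends, and 17.7% (GFP-positive) and 18.3% (GFP-negative) at 900 to 1000 bp. Both flanks were over 50% covered at 9 listed genes (25.0%), against 7.21% of all genes and 1 of the other 36 WRKY genes. A neighbouring gene lay in the window of 20 of the 36, and coverage there cannot be assigned to one gene.

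Much of this open chromatin was common to all libraries. Of all bases in the 36 windows, 26.3% were under a THS in each of the 6 libraries, against 13.3% over the windows of all genes. This share rises with coverage itself. Among the bases of a window open in any library, a median of 60.6% were open in all 6 for the listed genes, against 56.9% for all genes. The THSs formed 68 merged regions, and 54 of them (79.4%) held a THS in every library, against 70.1% of all merged regions. Each region was counted whole, also where it ran past the window. Some of the 54 therefore did not reach into the window in every library, as at WRKY2, WRKY12, WRKY20 and WRKY75. WRKY11 had the widest common stretch in total, 3734 bp, followed by WRKY48 with 2746 bp and WRKY70 with 2623 bp.

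Other genes of the same pathways ran from more to less open than the WRKY list. Rapidly wound- and stress-induced genes were the most open list, with means of 66.9 ± 3.35% in GFP-positive libraries, against 65.7 ± 2.90% in GFP-negative libraries. Of these 27 genes, 26 lay above the 26.8% level and 22 were over 50% covered, from CBF1, a cold response regulator, at 97.3% to LOX2, a jasmonate synthesis gene, at 5.18%. VQ proteins, which bind WRKY factors, averaged 48.1 ± 3.44% in GFP-positive libraries and 50.0 ± 4.14% in GFP-negative libraries over 7 genes, from SIB2 at 90.7% to IKU1 at 8.38%. The 9 MAP kinase cascade genes averaged 30.3 ± 2.69% in GFP-positive libraries and 32.0 ± 1.40% in GFP-negative libraries, from MKK9 at 69.8% to MKK2 at 10.6%.

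The 14 defence targets and salicylic acid genes averaged 24.7 ± 1.54% in GFP-positive libraries, against 26.9 ± 1.43% in GFP-negative libraries. ACS6, an ethylene synthesis gene, was the highest at 70.9%, and PAD3 and CYP71A13, the camalexin synthesis genes that WRKY33 controls, were listed at 0 in all 6 libraries, as was FRK1, a flagellin response marker. WRKY33 itself averaged 48.5 ± 4.59% in GFP-positive libraries and 50.0 ± 2.55% in GFP-negative libraries. None of the genes tested in these 4 lists or among the other 36 WRKY genes passed limma. At an unadjusted p under 0.05, 2 rapid wound genes were higher in GFP-positive cells and 2 lower, 1 VQ gene was lower, and of the other WRKY genes 1 was higher and 5 lower, beside the 3.84% higher and 6.95% lower of all genes tested.

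**Figure D5:**
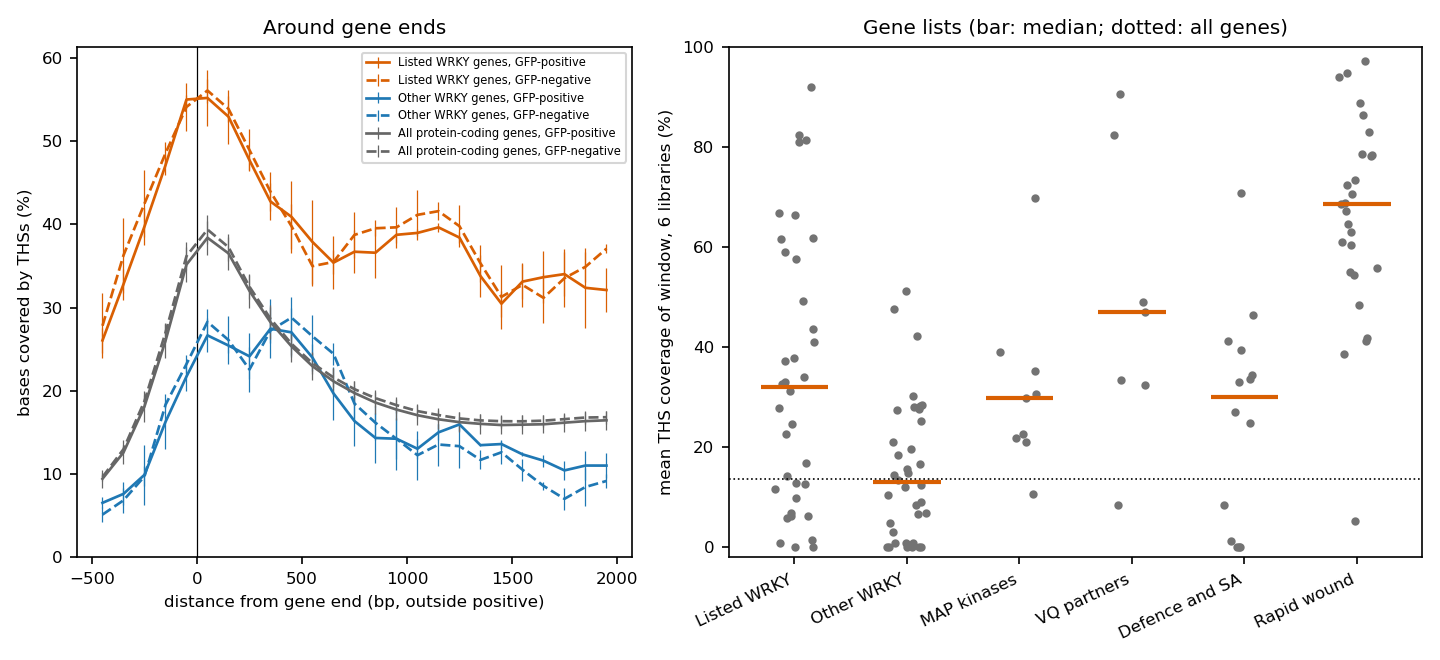
Left, percent of bases under a THS by distance from the gene end (bp, outside positive, both ends pooled; mean over 3 libraries, bars SD) for the listed WRKY genes, the other WRKY genes and all protein-coding genes; right, mean THS coverage over 6 libraries of each gene in 6 lists, with list medians and the all-gene median dotted. The listed WRKY curves lie above the all-gene curves over the whole 2000 bp in both populations, and the rapid wound genes have the highest list median (68.6%).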

How the data were processed

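ATAC-seq was done on sorted protoplasts, and the groups and replicate numbers come from the sample titles. The submitters used TAIR10 and the tools SICER, bedtools 2.17.0, Picard 1.105, SAMtools 0.1.19 and BWA 0.7 (per the submitters' processing notes). Tool order, settings, any read shift and the duplicate filter were not given in the sources used here, and sheared-DNA controls were not analysed here. The deposited lists, 1 per library, give positions and a score per site, the authors' own value on an unstated scale, used here only to rank sites within a list. A longer list can show sites that another misses.

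Gene positions came from a RefSeq table of assembly TAIR10.1. As a check of these positions, 99.8% or more of the authors' GFP-negative genes on each chromosome lay within 1000 bp of a site in those cells, and 81.9% or fewer after a shift of 5000 bp. The table gives no strand, exons or sequence, so a planned split into upstream and downstream flanks became lower and higher flanks, exons and UTRs were not separated, and no sequence is shown.

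Percent coverage was fitted with limma 3.58.1 (R 4.3.3; eBayes with a trend, no block) over 21886 protein-coding genes with coverage in at least 2 libraries, adjusted by Benjamini-Hochberg over all of them (threshold 0.05), after tests on simulated data. The simulated noise was normal and continuous, so those tests did not cover steps of 100 bp or identical values within a group, as at WRKY25. Lists are described by counts, means and medians with no test. Regions were merged THSs, present with at least 1 bp of overlap. The members and lists were chosen with earlier results of these data known. Values in every library are given for genes past limma or with groups that do not overlap, the 5 highest and 5 lowest means, and 4 defence and 5 developmental genes; WRKY17, WRKY46 and single values of others were added after their values were seen. Alternatives were other windows, site numbers, gene filters, variance models and scales, a replicate block and leaving out each library.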

Additional observations from a re-analysis of the deposited data

How the results depend on the processing

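Coverage is in steps of 100 bp with 3 libraries a group and unknown depth, so small differences in site width carry the calls. Of the 36 genes, the count with lower coverage in GFP-positive cells was 1, and it was 0 with flanks alone, 0 with no filter on genes and 0 to 2 when 1 library was left out; the count with higher coverage was 0, and 0 to 1 when 1 library was left out. WRKY25 was called under 8 of 16 alternatives (limma adjusted p 0.00215 to 1.0, the last in flanks alone, where its groups were equal). Over all genes, the calls were 76 higher and 249 lower; they were 125 higher with flanks alone, 187 higher with equal numbers of top-scoring sites, 119 higher over all nuclear genes, and 130 to 208 higher or 141 to 443 lower where leaving out 1 library moved them by over 1.5 times. In gene bodies alone, the 36 genes averaged 27.0% in GFP-positive libraries and 27.3% in GFP-negative libraries, and in flanks alone 42.5% (GFP-positive) and 43.1% (GFP-negative), since flanks are more covered than bodies. The flank median was 49.3% (GFP-positive) and 47.1% (GFP-negative) with flanks of 500 bp. Of 521 recomputed differences of single genes, 492 kept their sign and side of the threshold, 8 lost and 4 gained a call, 0 called values changed sign and 17 uncalled ones did. The single gene with a GFP-negative region stayed at 1, and the GFP-positive count at 0, with 100 bp of overlap and with equal numbers of sites.

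The replicate numbers were not taken to pair the libraries, and whether libraries of one number shared a sort is not known. Same-numbered libraries had correlations of 0.160, 0.0673 and 0.0388 in their deviations over 21886 genes. Those of different number ran from -0.145 to 0.0853, and most were negative. The highest of these was for GFP-positive replicate 2 with GFP-negative replicate 3. Deviations were taken from each group's own mean, so positive correlations in some pairs come with negative ones in others by construction. With a replicate block, 0 of the 36 genes were called higher and 0 lower, so the WRKY25 call was lost. Over all genes 1 was higher and 29 lower with the block. The cause of these shifts was not tested.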

Other observations

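Of the other 36 WRKY genes, 13 had higher, 12 lower and 11 equal mean coverage in GFP-positive libraries. All GFP-positive values lay above all GFP-negative values for 2 and below them for 6, where over all genes tested this held for 3.61% and 6.63%. WRKY66 had 19.6% in each GFP-positive library, against 0, 0 and 16.3% in GFP-negative libraries (limma adjusted p = 0.421). WRKY62, a group III gene that acts with WRKY38 in basal defence, was listed at 0 in all GFP-positive libraries and averaged 16.8 ± 10.0% in GFP-negative libraries (limma adjusted p = 0.355). WRKY60, the third member of group IIa beside WRKY18 and WRKY40, averaged 10.7% in GFP-positive libraries, against 20.4% in GFP-negative libraries (limma adjusted p = 0.1002). WRKY18 and WRKY40 themselves as a pair averaged 62.4 ± 5.64% in GFP-positive libraries and 58.4 ± 6.75% in GFP-negative libraries. These genes were singled out after their values were seen.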
